A study of Arabidopsis thaliana with 24 samples.

Results

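The question here was which transcripts responded to the quinone DMBQ (2,6-dimethoxy-1,4-benzoquinone) differently in card1 mutants than in WT, as a single quantity per gene. The quantity is the mean of the DMBQ response of card1-1 and that of card1-2, minus the response of WT, on the log2 scale, where a response is DMBQ minus mock. It is called the joint difference below, and a negative value means that DMBQ left the transcript lower, relative to mock, in the mutants than in WT. All 33602 of the 33602 Arabidopsis gene codes of the deposited count table and all 24 of 24 libraries belong to it, and 17734 genes had enough counts to be tested. The groups were card1-1 with DMBQ, card1-1 with mock, card1-2 with DMBQ, card1-2 with mock, WT with DMBQ and WT with mock, each with 4 libraries.

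Every group consisted of whole Col-0 seedlings, 7 days old and grown in liquid Murashige-Skoog medium. WT was a line that expresses aequorin, a photoprotein that reports calcium, and both mutants were in that aequorin background, so the reporter was shared by all groups. DMBQ was given at 5 µM for 10 min, and mock was the same volume of its solvent DMSO for the same time. What is changed in either allele is not stated in the labels. Whether the 4 libraries of a group were grown as separate cultures is not stated either, so every p-value rests on a spread that may be technical. In whole seedlings, fewer cells of a type and less RNA per cell cannot be told apart.

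CARD1 (AT5G49760) encodes a leucine-rich repeat receptor kinase of the plant cell surface that is known to be required for the calcium signal raised by quinones. Quinones such as DMBQ are released from plant cell walls and are sensed by parasitic plants as a sign of a host root. Early plant signalling of this kind runs from receptor kinases through calcium and mitogen-activated protein kinases to fast transcription factor genes, many of them of the WRKY, ERF and zinc finger families.

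Of the 17734 genes tested, 11 passed an adjusted p of 0.05 in the joint difference (edgeR's quasi-likelihood test, two-sided, Benjamini-Hochberg adjustment over all genes tested, as for every adjusted p below unless another tool is named). They are 0.062% of the genes tested. In 7 genes, 0.0395%, the joint difference was negative: SOBIR1, CYP707A3, MRL1, SCA3, WRKY22, ACA10 and ZAR1. In 4 genes, 0.0226%, it was positive: the plastid gene ATCG00150, the tubulin genes TUB2 and TUB3, and AT5G60990. At an unadjusted p under 0.05, 809 genes were lower and 631 were higher. The joint difference had a median of −0.01 over all genes tested, with a median standard error (SE) of 0.41.

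The responses within each genotype, and the mutants against WT with DMBQ, called more genes than the joint difference. In card1-1, DMBQ minus mock called 560 genes lower and 629 higher (6.7% of those tested, 3.16% lower and 3.55% higher). In card1-2 it called 200 lower and 190 higher (2.2%, 1.13% lower and 1.07% higher), and in WT 2 lower and 180 higher (1.03%, 0.0113% lower and 1.01% higher). With DMBQ, the mean of both mutants was lower than WT in 112 genes and higher in 82 (1.09%, 0.632% lower and 0.462% higher). With mock, 0 genes (0%) differed between the mutants and WT by edgeR, and 511 had an unadjusted p under 0.05. All 7 genes with a negative joint difference had a mutants-minus-WT value above 0 with mock, of 0.19 (SCA3) to 1.304 (CYP707A3), none of them past the threshold. The joint difference is the mutants-minus-WT value with DMBQ minus that with mock. Genes picked for a negative joint difference therefore lean towards positive mock values by construction, and these values do not show a raised baseline. Over all genes tested the median mock value was 0.005.

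The 250 bases before the annotated gene start are shown for MRL1, CYP707A3 and SCA3, 3 of the genes called lower, from the RefSeq genome and annotation of assembly TAIR10.1, each read 5′ to 3′ on the gene's own strand. Capitals mark TTGAC, the core of the W-box that WRKY factors are known to bind, on either strand (GTCAA is its reverse complement). The windows lie at chr4:16606136-16606385 (MRL1, minus strand, inside the neighbouring annotated gene AT4G34840 in part), chr5:18371022-18371271 (CYP707A3, minus strand) and chr2:10254642-10254891 (SCA3, minus strand).
MRL1: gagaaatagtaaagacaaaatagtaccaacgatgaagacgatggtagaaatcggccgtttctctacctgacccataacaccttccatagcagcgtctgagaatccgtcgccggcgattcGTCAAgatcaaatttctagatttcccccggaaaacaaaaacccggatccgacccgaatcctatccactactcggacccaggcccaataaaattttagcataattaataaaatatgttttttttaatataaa
CYP707A3: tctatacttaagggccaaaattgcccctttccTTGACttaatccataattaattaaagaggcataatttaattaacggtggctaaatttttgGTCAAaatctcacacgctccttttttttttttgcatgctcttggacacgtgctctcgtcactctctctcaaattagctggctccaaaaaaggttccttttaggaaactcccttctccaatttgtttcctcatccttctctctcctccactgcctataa
SCA3: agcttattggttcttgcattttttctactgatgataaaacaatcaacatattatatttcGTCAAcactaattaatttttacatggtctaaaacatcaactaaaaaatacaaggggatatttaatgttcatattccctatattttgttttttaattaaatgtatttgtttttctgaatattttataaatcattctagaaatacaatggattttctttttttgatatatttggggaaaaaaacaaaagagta
TTGAC began 131 bases upstream of the gene start in MRL1, 191 in SCA3, and 218 and 158 in CYP707A3, counted to the first base as read. Of 9 called nuclear genes examined, 3 had TTGAC in this window, against 44.5% of all 32833 windows of the same length. CGCG, the core of the element bound by calmodulin-binding CAMTA factors, was in 0 of the 9 windows and in 10.4% of all windows, and GCCGCC, the element of ERF factors, was in 0 of the 9 and in 1.98% of all (CGCG was counted once per site, since it is its own reverse complement, GCCGCC on both strands, and none of the words searched contains another). A match is a description of the letters and not evidence of a bound site.

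SOBIR1 (AT2G31880, chr2:13554870-13556977, plus strand) encodes the leucine-rich repeat receptor kinase that serves as a constitutive partner of receptor-like proteins in immunity. With DMBQ in card1-1 its normalised read count was 44.2, 27.8, 37.9 and 43.2 CPM, against 97.2, 61.2, 70.5 and 51.1 CPM with mock. In card1-2 it was 59.9, 73.8, 109 and 66.3 CPM with DMBQ, against 60.1, 47.0, 63.1 and 42.2 CPM with mock. In WT it was 154, 105, 114 and 144 CPM with DMBQ, against 32.3, 33.4, 37.2 and 51.0 CPM with mock. All card1-1 libraries were thus lower with DMBQ than with mock, those of card1-2 overlapped, and all WT libraries were higher with DMBQ. The joint difference was −1.92 ± 0.26 (log2, SE; adjusted p = 7.12e-05), from responses of −0.87 ± 0.22 in card1-1 (adjusted p = 0.00974), 0.53 ± 0.21 in card1-2 (adjusted p = 0.213) and 1.75 ± 0.21 in WT (adjusted p = 3.27e-07).

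For SOBIR1 the difference from WT was called for card1-1 on its own (−2.62 ± 0.30, adjusted p = 1.33e-06), and the same comparison for card1-2 gave −1.22 ± 0.30 (adjusted p = 0.162). The response of card1-1 minus that of card1-2 was −1.40 ± 0.30 (adjusted p = 0.109), which misses the threshold and does not show that the alleles act alike. Between DMBQ-treated plants alone, the mutants were lower than WT by a log2 difference of −1.25 ± 0.17 (adjusted p = 4.21e-05), and the mutants minus WT with mock gave 0.67 ± 0.19 (adjusted p = 0.793). All card1-1 mock libraries lay above all WT mock libraries, while card1-2 mock and WT mock overlapped. SOBIR1 was called in all 36 alternative fits that could test it, with joint differences of −2.14 to −1.82 and adjusted p of 3.92e-08 to 0.00102, and it had the smallest p of all genes in each.

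**Figure D1:**
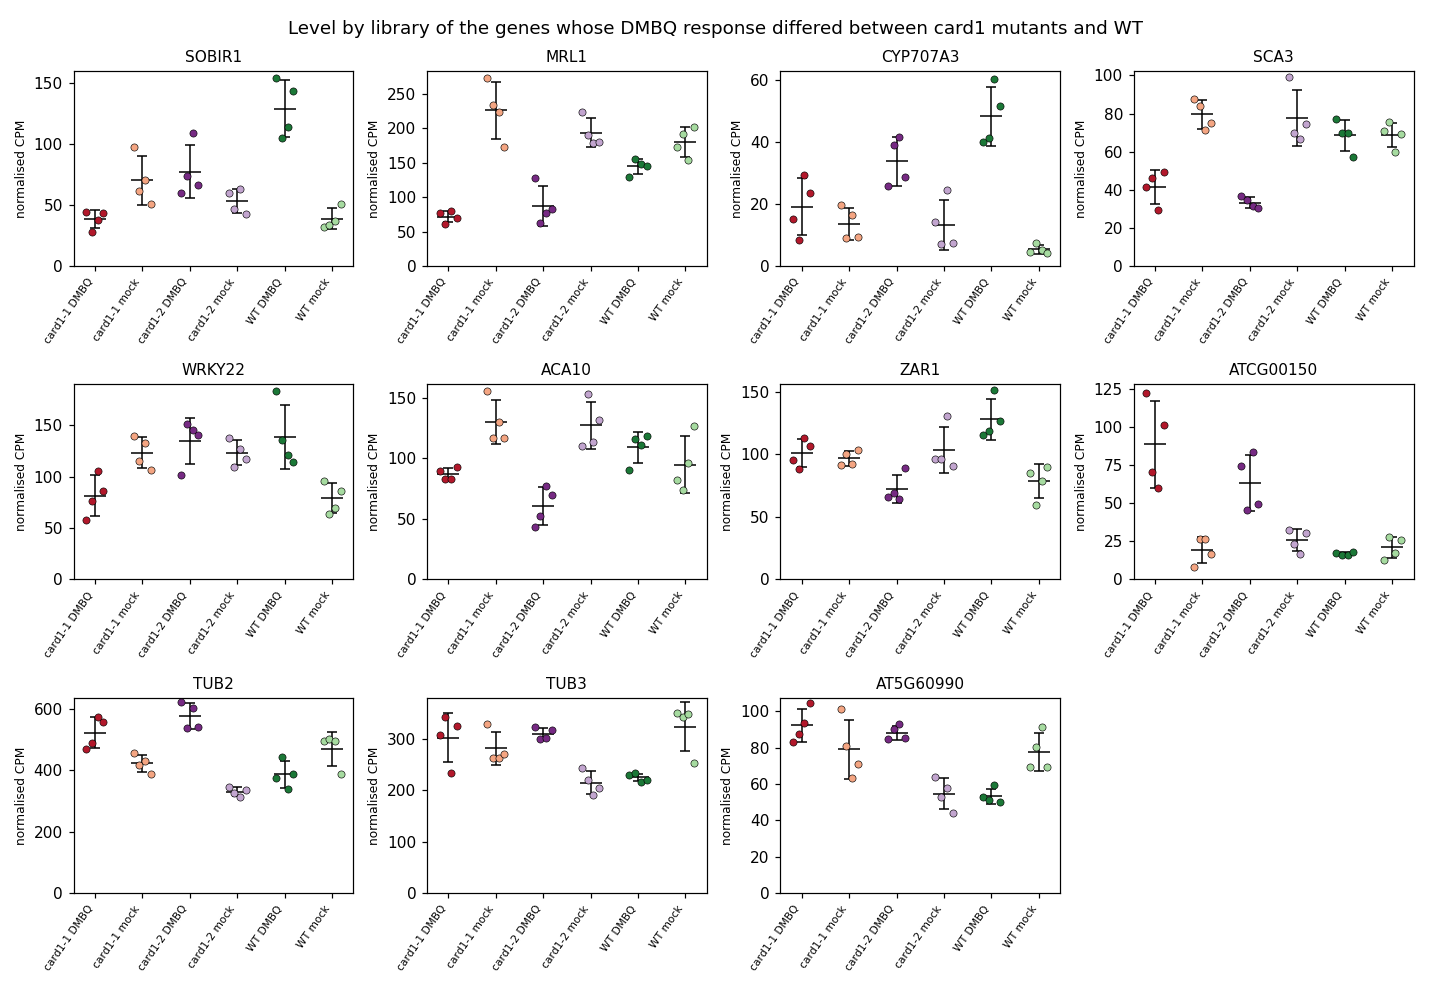
Normalised read count (CPM, linear axis from 0) of the 11 called genes, 1 panel per gene, in 4 libraries per group, with points for libraries, a horizontal bar for the mean and whiskers for the SD. SOBIR1 averaged 38.3 CPM in card1-1 and 77.2 CPM in card1-2 with DMBQ, against 129 CPM in WT with DMBQ, while ATCG00150 averaged 88.9 and 63.5 CPM in DMBQ-treated card1-1 and card1-2, against 17.0 CPM in WT with DMBQ.

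CYP707A3 (AT5G45340, chr5:18368532-18371021, minus strand) encodes an abscisic acid 8′-hydroxylase, the enzyme class that breaks this hormone down. Its level in card1-1 was 15.1, 8.46, 29.4 and 23.4 CPM with DMBQ, against 19.5, 8.95, 16.3 and 9.35 CPM with mock. In card1-2 the libraries held 25.7, 38.9, 41.6 and 28.5 CPM with DMBQ, against 14.03, 7.17, 24.4 and 7.28 CPM with mock. In WT they held 39.9, 41.2, 60.1 and 51.5 CPM with DMBQ, against 4.58, 7.42, 5.25 and 4.09 CPM with mock. DMBQ and mock overlapped in card1-1 and did not in card1-2 or WT, where every DMBQ library was higher, and every card1-1 library with mock lay above every WT library with mock. The joint difference was −2.23 ± 0.43 (adjusted p = 0.0229), with responses of 0.49 ± 0.35 in card1-1 (adjusted p = 0.474), 1.33 ± 0.35 in card1-2 (adjusted p = 0.0270) and 3.14 ± 0.36 in WT (adjusted p = 1.64e-07). Mutants minus WT gave −0.92 with DMBQ (adjusted p = 0.0933) and 1.304 with mock (adjusted p = 0.413), and neither passed the threshold. The call was lost when WT mock 1, 2, 3 or 4 or WT DMBQ 2, 3 or 4 was left out (adjusted p = 0.0530 to 0.141, joint difference −2.44 to −2.10), and DESeq2 gave no adjusted p for it.

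WRKY22 (AT4G01250, chr4:522530-524249, minus strand) encodes a WRKY transcription factor placed downstream of mitogen-activated protein kinases in flagellin signalling. It had 57.4, 76.2, 105 and 86.4 CPM in card1-1 with DMBQ, against 139, 115, 132 and 107 CPM in card1-1 with mock. The card1-2 libraries had 102, 151, 145 and 139.9 CPM with DMBQ, against 138, 109.5, 127 and 118 CPM with mock. Those of WT had 183, 136, 121 and 114 CPM with DMBQ, against 95.4, 63.7, 69.7 and 86.2 CPM with mock. As for SOBIR1, the DMBQ libraries were all below mock in card1-1, overlapped with mock in card1-2 and were all above mock in WT, and every mock library of both mutants lay above every WT mock library. The joint difference was −1.05 ± 0.22 (adjusted p = 0.0391), from responses of −0.60 ± 0.18 in card1-1 (adjusted p = 0.0346), 0.13 ± 0.18 in card1-2 (adjusted p = 0.815) and 0.82 ± 0.18 in WT (adjusted p = 0.00685). Of the 24 fits that each left out 1 library, 10 kept the call; it was lost without WT mock 1, 2, 3 or 4, WT DMBQ 1, 2 or 3, card1-1 mock 3, card1-1 DMBQ 2 or 4, card1-2 mock 1, 2 or 3, or card1-2 DMBQ 1 (adjusted p = 0.0506 to 0.189, joint difference −1.15 to −0.88).

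ZAR1 (AT3G50950, chr3:18935674-18938799, plus strand) encodes a nucleotide-binding leucine-rich repeat immune receptor that forms a calcium-permeable resistosome. Its card1-1 libraries had 95.4, 88.7, 113 and 107 CPM with DMBQ, against 91.6, 100.5, 92.3 and 103 CPM with mock. Its card1-2 libraries had 65.7, 69.4, 64.7 and 88.9 CPM with DMBQ, against 96.6, 96.0, 131 and 90.8 CPM with mock. Its WT libraries had 115, 119, 152 and 127 CPM with DMBQ, against 85.3, 59.4, 79.1 and 90.3 CPM with mock. Here it was card1-2 in which every DMBQ library was below mock, card1-1 in which they overlapped and WT in which every DMBQ library was above mock. ZAR1 had a joint difference of −0.94 ± 0.20 (adjusted p = 0.0469), the difference from WT was −1.23 ± 0.23 for card1-2 (adjusted p = 0.0244) and −0.65 ± 0.23 for card1-1 (adjusted p = 0.301), and the WT response was 0.71 ± 0.16 (adjusted p = 0.0121). ZAR1 was called in 12 of 36 alternatives and in 5 of the 24 fits without 1 library, which were those without card1-1 mock 1, card1-1 DMBQ 3, card1-2 mock 4, card1-2 DMBQ 2 or card1-2 DMBQ 4 (adjusted p = 0.0510 to 0.249 in the other 19).

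These 4 genes were also called higher with DMBQ in WT, and the WT response enters the joint difference with a minus sign, so both values share the WT libraries. The other 3 lower genes, MRL1, SCA3 and ACA10, were not called in WT, and their level was lower with DMBQ in each mutant.

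MRL1 (AT4G34830, chr4:16599597-16606135, minus strand) encodes a pentatricopeptide repeat protein that stabilises the plastid transcript of the large Rubisco subunit. With DMBQ in card1-1 it had 76.6, 61.3, 79.9 and 69.2 CPM, against 273, 234, 224 and 173 CPM with mock. In card1-2 it had 128, 61.8, 76.5 and 82.9 CPM with DMBQ, against 224, 191, 179 and 181 CPM with mock. In WT it had 129.9, 156, 148 and 145 CPM with DMBQ, against 174, 192, 154 and 202 CPM with mock. All DMBQ libraries of both mutants lay below their own mock libraries and below all WT libraries with DMBQ, and the WT libraries overlapped between treatments. MRL1 had a joint difference of −1.09 ± 0.21 (adjusted p = 0.0226), from −1.66 ± 0.18 in card1-1 (adjusted p = 1.03e-07), −1.16 ± 0.17 in card1-2 (adjusted p = 8.13e-05) and −0.32 ± 0.17 in WT (adjusted p = 1). The call was lost without WT mock 1, 2 or 3 or WT DMBQ 2 or 3 (adjusted p = 0.0557 to 0.141, joint difference −1.12 to −1.02).

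SCA3 (AT2G24120, chr2:10248851-10254641, minus strand) encodes the nuclear-encoded RNA polymerase RpoTp that transcribes plastid genes. Its libraries had 41.2, 46.0, 29.4 and 49.4 CPM in card1-1 with DMBQ, against 87.7, 84.0, 71.6 and 75.1 CPM with mock. They had 36.5, 34.5, 31.3 and 30.6 CPM in card1-2 with DMBQ, against 99.0, 70.0, 66.7 and 74.3 CPM with mock. They had 77.3, 69.6, 70.0 and 57.3 CPM in WT with DMBQ, against 70.6, 75.3, 59.9 and 69.2 CPM with mock. DMBQ and mock did not overlap in either mutant and did in WT, whose group means were 68.6 ± 8.30 CPM with DMBQ and 68.8 ± 6.46 CPM with mock (SD, n = 4 each). SCA3 had a joint difference of −1.07 ± 0.22 (adjusted p = 0.0321), while neither difference from WT passed by itself, at −0.94 ± 0.25 for card1-1 (adjusted p = 0.130) and −1.21 ± 0.25 for card1-2 (adjusted p = 0.0588). Leaving out WT mock 1, 2, 3 or 4, WT DMBQ 1, 2 or 3 or card1-2 mock 1 ended the call (adjusted p = 0.0531 to 0.145).

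ACA10 (AT4G29900, chr4:14610883-14619685, minus strand) encodes an autoinhibited calcium ATPase, a pump that removes calcium from the cytosol. The card1-1 libraries held 89.1, 82.6, 82.8 and 92.6 CPM with DMBQ, against 155, 116, 130.2 and 117 CPM with mock. The card1-2 libraries held 43.1, 52.5, 77.1 and 69.7 CPM with DMBQ, against 109.8, 153, 114 and 132 CPM with mock. The WT libraries held 90.6, 116, 111 and 119 CPM with DMBQ, against 81.9, 73.9, 96.1 and 127 CPM with mock. Every DMBQ library was below every mock library in both mutants, and WT overlapped. For ACA10 the joint difference was −1.03 ± 0.22 (adjusted p = 0.0435), with responses of −0.58 ± 0.18 in card1-1 (adjusted p = 0.0401), −1.07 ± 0.18 in card1-2 (adjusted p = 0.000333) and 0.21 ± 0.18 in WT (adjusted p = 1). It was called in 9 of the 24 fits without 1 library, and was lost without WT mock 1, 2 or 3, any WT DMBQ library, card1-1 mock 3, card1-1 DMBQ 2, 3 or 4, card1-2 mock 2, 3 or 4, or card1-2 DMBQ 1 (adjusted p = 0.0510 to 0.218, joint difference −1.11 to −0.93).

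**Figure D2:**
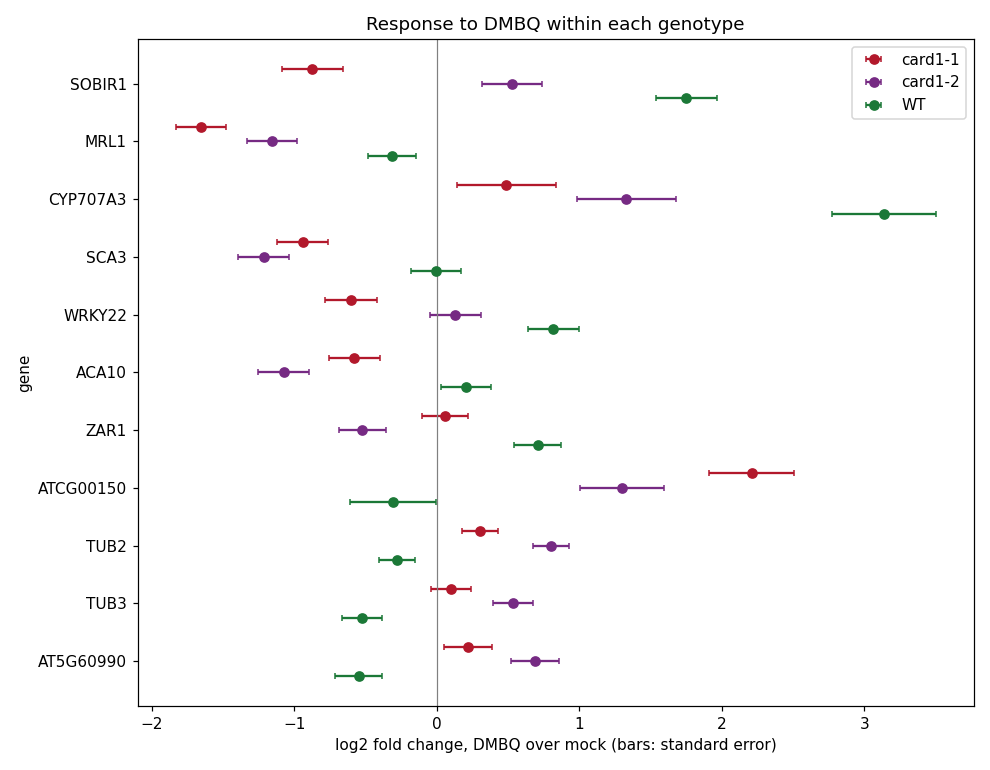
Response to DMBQ (log2 fold change, DMBQ over mock, horizontal axis) of the 11 called genes in card1-1, card1-2 and WT, with bars for the SE of the fit to 24 libraries. SOBIR1 lies at −0.87 in card1-1, 0.53 in card1-2 and 1.75 in WT, and SCA3 at −0.94 in card1-1, −1.22 in card1-2 and 0.00 in WT.

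Among the 4 called genes with a positive joint difference, the plastid genome gene ATCG00150 had the largest value. Its card1-1 libraries held 123, 70.9, 60.4 and 102 CPM with DMBQ, against 8.37, 26.3, 26.7 and 16.5 CPM with mock. Its card1-2 libraries held 74.6, 45.7, 83.7 and 49.8 CPM with DMBQ, against 32.5, 23.5, 16.5 and 30.6 CPM with mock. Its WT libraries held 17.4, 16.3, 16.3 and 17.9 CPM with DMBQ, against 13.01, 27.7, 17.603 and 25.8 CPM with mock. Both mutants were higher with DMBQ in every library and WT overlapped. Its joint difference was 2.06 ± 0.37 (adjusted p = 0.0180), with responses of 2.21 ± 0.30 in card1-1 (adjusted p = 2.25e-05), 1.2997 ± 0.29 in card1-2 (adjusted p = 0.00956) and −0.31 ± 0.30 in WT (adjusted p = 1). With the not unique share of alignment records as a covariate it was 1.56 (adjusted p = 0.0665), and without WT mock 2, WT DMBQ 2 or WT DMBQ 3 the adjusted p was 0.0557 to 0.0658 (joint difference 1.89 to 2.05).

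TUB2 (AT5G62690, chr5:25181296-25183811, plus strand) and TUB3 (AT5G62700, chr5:25184258-25186777, plus strand) are neighbouring genes for beta-tubulin, the subunit that pairs with alpha-tubulin in microtubules. Their coding sequences are identical at 1321 of 1353 bases (97.6%), so reads could be split or lost between them and their values are uncertain and not independent. In card1-1, TUB2 had 471, 489, 575 and 556 CPM with DMBQ, against 457, 416, 429 and 388 CPM with mock. In card1-2, TUB2 had 621, 538, 603 and 543 CPM with DMBQ, against 347, 325, 313 and 336 CPM with mock. In WT, TUB2 had 375, 444, 340.5 and 388 CPM with DMBQ, against 495, 501, 496 and 388 CPM with mock. All DMBQ libraries of both mutants were above their mock libraries for TUB2, and those of WT overlapped.

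The TUB2 joint difference was 0.84 ± 0.15 (adjusted p = 0.0180), with a card1-2 difference from WT of 1.08 ± 0.18 (adjusted p = 0.00619) and a card1-1 difference of 0.59 ± 0.18 (adjusted p = 0.201). TUB3 had 307, 342, 233 and 326 CPM in card1-1 with DMBQ, against 329, 263, 263 and 271 CPM with mock. TUB3 had 323, 299, 302 and 317 CPM in card1-2 with DMBQ, against 242, 219.9, 190.5 and 205 CPM with mock. The TUB3 libraries thus overlapped between treatments in card1-1 and were all higher with DMBQ in card1-2. In WT, TUB3 had 229, 233, 216 and 220.5 CPM with DMBQ, against 351, 342, 348 and 252 CPM with mock, all lower with DMBQ. Its joint difference was 0.84 ± 0.17 (adjusted p = 0.0321), and its WT response was −0.52 ± 0.14 (adjusted p = 0.0474). The TUB2 call was lost without WT mock 1, 2 or 3 or WT DMBQ 1 or 3 (adjusted p = 0.0518 to 0.105, joint difference 0.78 to 0.83), and that of TUB3 without WT mock 1, 2 or 3, any WT DMBQ library, card1-1 mock 3, card1-1 DMBQ 2 or 4 or card1-2 mock 2 or 3 (adjusted p = 0.0506 to 0.141, joint difference 0.80 to 0.86).

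AT5G60990 (chr5:24546329-24549339, minus strand) is annotated as a member of the DEA(D/H)-box RNA helicase family, enzymes that remodel RNA. In card1-1 its level was 83.2, 87.5, 93.8 and 104 CPM with DMBQ, against 101, 80.9, 63.0 and 71.2 CPM with mock. In card1-2 its level was 84.7, 90.08, 93.0 and 85.6 CPM with DMBQ, against 64.1, 52.8, 57.9 and 44.2 CPM with mock. In WT its level was 52.6, 51.1, 59.3 and 50.1 CPM with DMBQ, against 69.6, 80.3, 91.6 and 69.2 CPM with mock. DMBQ was above mock in every card1-2 library and below it in every WT library, with overlap in card1-1. The joint difference was 1.00 ± 0.20 (adjusted p = 0.0339), and it was lost in 11 of the 24 fits without 1 library, namely without WT mock 1, 2 or 3, any WT DMBQ library, card1-1 mock 3 or 4, card1-1 DMBQ 4 or card1-2 mock 2 (adjusted p = 0.0510 to 0.160, joint difference 0.91 to 1.06).

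The members just outside the threshold were GLDP2, a glycine decarboxylase subunit of photorespiration, AT3G02790, a C2H2 zinc finger gene, and AT1G29470, a methyltransferase-family gene, all at an adjusted p of 0.0569. The joint difference was −0.81 ± 0.18 for GLDP2, 1.3001 ± 0.28 for AT3G02790 and −0.82 ± 0.18 for AT1G29470. The member just inside was ZAR1 at 0.0469.

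The card1-1 response minus the WT response called 10 genes (0.0564%), 9 of them lower (0.0507%) and 1 higher (0.00564%). Besides SOBIR1, CYP707A3, MRL1, WRKY22 and ATCG00150, they were AT1G18740 and AT1G74450, which both encode DUF793 proteins, the berberine-bridge family oxidase gene AT4G20830, the calmodulin-binding protein gene CAMBP25, and AT3G28580, annotated as a nucleoside triphosphate hydrolase. AT1G18740 had 63.3, 24.2, 73.4 and 75.4 CPM in card1-1 with DMBQ, 84.3, 102, 137 and 111 CPM in card1-2 with DMBQ and 185, 172, 149 and 146 CPM in WT with DMBQ, and all libraries of both mutants lay below all of WT. Its difference from WT was −1.64 ± 0.29 for card1-1 (adjusted p = 0.00652) and −0.37 ± 0.29 for card1-2 (adjusted p = 0.847), and its joint difference was −1.01 ± 0.25 (adjusted p = 0.117). CAMBP25 gave −1.56 for card1-1 (adjusted p = 0.0118) and −0.46 for card1-2 (adjusted p = 0.771).

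The card1-2 response minus the WT response called 5 genes (0.0282%), TUB2, TUB3, ZAR1, AT5G60990 and ACA10, of which 2 were lower (0.0113%) and 3 were higher (0.0169%). Both differences use the same WT libraries, so they are set side by side and not counted against each other. The alleles were compared directly without WT, as the card1-1 response minus the card1-2 response. That comparison called 0 of 17734 genes with edgeR and 23 with DESeq2, and 1653 genes had an unadjusted p under 0.05 with edgeR (959 lower, 694 higher).

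The smallest p between the alleles belonged to AT5G47680, annotated as a tRNA methyltransferase-like gene, and ATBET12, a target SNARE gene of vesicle fusion, both at an adjusted p of 0.0911. AT5G47680 had 73.6, 90.7, 83.2 and 88.6 CPM in card1-1 with DMBQ, against 203, 152, 127 and 131 CPM in card1-1 with mock. In card1-2 it had 147, 186, 132 and 127 CPM with DMBQ, against 133, 109, 113 and 118 CPM with mock. DMBQ libraries were all below mock in card1-1 and overlapped with mock in card1-2. The response of card1-1 minus that of card1-2 was −1.20 ± 0.23 for AT5G47680 and −1.63 ± 0.32 for ATBET12, whose joint difference was 0.00 ± 0.28.

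CARD1 itself averaged 65.7 ± 18.1 CPM in card1-1 with DMBQ and 54.1 ± 6.03 CPM with mock, 66.6 ± 17.56 CPM in card1-2 with DMBQ and 52.8 ± 12.7 CPM with mock, and 83.3 ± 7.67 CPM in WT with DMBQ and 71.4 ± 5.41 CPM with mock (SD, n = 4 each). Its joint difference was 0.08 ± 0.24 (adjusted p = 0.975), and it was called in 0 of 36 alternatives. A transcript level of this gene does not check alleles whose lesions are not given.

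Gene lists for the pathways of early signalling were read by their counts and medians, beside the 8975 genes below 0 and 8759 above 0 among all 17734. Among the tested members of the nuclear lists, 2 passed the joint threshold by edgeR, SOBIR1 and WRKY22. DESeq2 also called BIR1, PUB23, NHL3, JAZ1 and SZF1, all lower. Over all 17734 genes DESeq2 called 84 lower and 39 higher. With edgeR these counts were 7 lower (0.0395%) and 4 higher (0.0226%). The lists were chosen with earlier results of these data known, and their WT responses share the WT libraries with the joint difference, so their directions are a description. Members with few reads with mock could also pass the filter on low counts through DMBQ libraries, those of WT among them. The WT response enters the joint difference with a minus sign, so counts of members below 0 are not a test. Median differences from WT for card1-1 and card1-2 were −1.09 and −0.49 for ERF and DREB genes. They were −1.09 and −0.42 for zinc finger genes and −0.53 and −0.21 for WRKY genes. Calcium and touch genes had −0.80 and −0.64, receptors −0.66 and −0.48, and immune signalling genes −0.71 and −0.53. Ethylene synthesis genes had −0.55 and −0.58.

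Genes of cell-surface receptors and co-receptors had 10 of 12 tested members below 0 and a median joint difference of −0.54, with 1 called. Besides SOBIR1, BIR1, a BAK1-interacting receptor kinase, had −1.10 ± 0.27 (adjusted p = 0.108). BIR1 was picked after its values were seen, because 4 alternatives called it (DESeq2, limma voom with and without group weights, and the fit without the 3 libraries above 55% not unique). The fits without 1 library were not examined for BIR1. Its group means were 28.8 ± 12.6 CPM in card1-1 with DMBQ against 54.8 ± 6.97 CPM with mock, 40.9 ± 5.84 CPM in card1-2 with DMBQ against 47.8 ± 3.80 CPM with mock, and 64.3 ± 7.27 CPM in WT with DMBQ against 45.1 ± 9.41 CPM with mock (SD, n = 4 each). Its response in card1-1 alone was called, at −0.93 ± 0.23 (adjusted p = 0.00892). The chitin receptor gene LYK5 had −0.68 ± 0.57 and the cytoplasmic kinase gene BIK1 −0.72 ± 0.33, both with adjusted p above 0.05 (0.834 and 0.530), and the co-receptor gene BAK1 had 0.21 ± 0.21 (adjusted p = 0.874).

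Calcium and touch genes had 13 of 16 tested members below 0, a median joint difference of −0.67 and no member called by edgeR or DESeq2. The calmodulin-like gene AT3G29000 had 11.4, 1.21, 18.4 and 20.3 CPM in card1-1 with DMBQ, 3.11, 12.3, 37.5 and 18.6 CPM in card1-2 with DMBQ and 26.3, 22.9, 49.3 and 30.7 CPM in WT with DMBQ. The card1-1 libraries all lay below those of WT, and card1-2 overlapped with WT. Its joint difference of −2.58 ± 1.16 had an adjusted p of 0.562, and its level with mock was at most 4.45 CPM in any library. The calcium-dependent protein kinase genes CPK28 and CPK32 had −0.97 ± 0.27 (adjusted p = 0.163) and −0.99 ± 0.32 (adjusted p = 0.302) by edgeR; limma voom with group weights called both lower, and edgeR with the replicate number as a block called CPK32. At the other end of the list AT5G54490, a calcium-binding protein gene, had 0.30 ± 0.59 (adjusted p = 0.957).

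Of 17 listed ERF and DREB factor genes 12 could be tested, and of 13 listed zinc finger genes 11. All 12 tested ERF and DREB factor genes and 10 of 11 zinc finger genes were below 0, with medians of −0.73 and −0.88 and no member called by edgeR. The cold-response factor gene CBF2 had −2.47 ± 1.502 (adjusted p = 0.718) with at most 13.1 CPM in any library, and ERF11 had −1.36 ± 1.15 (adjusted p = 0.833). CBF2 had no reads in any WT mock library, so its joint difference rests on an empty baseline. With DMBQ, CBF2 had 0, 0.806, 13.05 and 0.882 CPM in card1-1, a mean of 3.68 CPM that rests on card1-1 DMBQ 3. The other card1-1 libraries lay below every WT library with DMBQ, whose mean was 2.65 CPM. In card1-2 CBF2 had 1.166, 4.607, 6.165 and 7.205 CPM (mean 4.79 CPM), with card1-2 DMBQ 1 below every WT library and the others above. ERF11 with DMBQ had 6.259, 0, 5.301 and 3.527 CPM in card1-1 (mean 3.77 CPM). In card1-2 it had 0.777, 3.071, 27.741 and 6.305 CPM, a mean of 9.47 CPM that rests on card1-2 DMBQ 3. The WT libraries had 9.763, 5.804, 6.364 and 5.208 CPM (mean 6.78 CPM). ZAT10, a C2H2 repressor gene of stress responses, had 4.42, 4.03, 21.6 and 14.6 CPM in card1-1 with DMBQ, 17.9, 16.6, 14.9 and 20.4 CPM in card1-2 with DMBQ and 26.6, 32.3, 39.4 and 23.1 CPM in WT with DMBQ. Every DMBQ library of either mutant was below every WT library with DMBQ, and every DMBQ library of each genotype was above its own mock libraries. SZF1, a salt-inducible zinc finger gene, had a joint difference of −1.36 ± 0.35 (adjusted p = 0.158) and was called lower by DESeq2, by limma voom with group weights and with the replicate block. The joint difference of ZAT10 was −1.80 ± 0.68 (adjusted p = 0.415), between responses of 2.44 in card1-1, 2.88 in card1-2 and 4.45 in WT.

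WRKY factor genes had 13 of 18 tested members below 0, a median of −0.34 and 1 member called, WRKY22. WRKY33, a regulator of camalexin synthesis, had 215, 125, 365 and 211 CPM in card1-1 with DMBQ, 242, 219, 418 and 277 CPM in card1-2 with DMBQ and 420.4, 419.5, 507 and 428 CPM in WT with DMBQ, the mutants all below WT. With mock, WRKY33 had 239, 73.9, 158 and 89.3 CPM in card1-1 and 108, 65.1, 64.3 and 89.3 CPM in card1-2. The WT mock libraries had 79.3, 69.0, 79.5 and 83.1 CPM. Its joint difference was −1.25 ± 0.40 (adjusted p = 0.319), that of WRKY46 −1.66 ± 0.69 (adjusted p = 0.474) and that of WRKY40 −1.04 ± 0.49 (adjusted p = 0.592). WRKY17 lay on the other side, at 0.42 ± 0.26 (adjusted p = 0.712).

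Immune signalling genes had 13 of 17 tested members below 0 and a median of −0.50, without a call by edgeR. The U-box ubiquitin ligase genes PUB22 and PUB23, negative regulators of pattern-triggered immunity, had −1.28 ± 0.35 (adjusted p = 0.158) and −1.51 ± 0.44 (adjusted p = 0.183). NHL3, of the NDR1/HIN1-like family, had −1.27 ± 0.35 (adjusted p = 0.183), and SYP121, a syntaxin gene, −0.73 ± 0.22 (adjusted p = 0.207). DESeq2 called PUB23 and NHL3 lower, limma voom with group weights PUB22, PUB23 and SYP121, and the fit with the replicate block NHL3. The Pep peptide precursor gene PROPEP3 had a joint difference of 0.88 ± 0.97 (adjusted p = 0.895) that averaged −1.84 for card1-1 and 3.59 for card1-2, with at most 7.32 CPM in any library. PROPEP3 had no reads in any card1-2 mock library, so the value for card1-2 rests on an empty baseline. With DMBQ, PROPEP3 had 0.777, 2.815, 4.624 and 3.603 CPM in card1-2, against 7.322, 7.185, 3.978 and 7.233 CPM in WT. Ethylene synthesis genes were below 0 in 6 of 6 tested members, with a median of −0.70. ACS6 and ACS7, which make the ethylene precursor, had −1.49 ± 0.61 (adjusted p = 0.465) and −0.89 ± 0.28 (adjusted p = 0.245). In card1-1 with DMBQ, ACS6 had 9.57, 0, 12.2 and 8.38 CPM. The library without ACS6 reads, card1-1 DMBQ 2, also had none for CML37, ERF11 and PROPEP3.

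Jasmonate genes had 10 of 15 tested members below 0 and a median of −0.25. Their median difference from WT was −0.79 for card1-1 and 0.07 for card1-2. The repressor gene JAZ1 had 102, 32.2, 79.9 and 62.6 CPM in card1-1 with DMBQ, against 45.3, 37.3, 27.1 and 31.6 CPM with mock. In card1-2 JAZ1 had 77.7, 76.8, 96.6 and 81.4 CPM with DMBQ, against 42.5, 49.0, 43.9 and 19.4 CPM with mock. In WT JAZ1 had 162, 108, 105 and 120.4 CPM with DMBQ, against 22.9, 29.0, 27.4 and 22.7 CPM with mock. DMBQ and mock libraries overlapped in card1-1 and were separate in card1-2 and WT, and every mutant library with DMBQ was below every WT library with DMBQ. The joint difference of JAZ1 was −1.25 ± 0.30 (adjusted p = 0.108), with differences from WT of −1.31 for card1-1 and −1.19 for card1-2. DESeq2, limma voom with group weights and the fit without the 3 libraries above 55% not unique called JAZ1 lower. So did 2 of the 24 fits without 1 library. The jasmonate transcription factor gene MYC2 had −0.70 ± 0.28 (adjusted p = 0.454).

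Lists for quinone and electrophile detoxification, reactive oxygen enzymes and heat shock had medians of 0.17, 0.25 and 0.00, with 3 of 12, 3 of 8 and 3 of 6 tested members below 0, and none called by edgeR or DESeq2. The glutathione transferase gene GSTU24 had 0.32 ± 0.87 (adjusted p = 0.972), and AT4G35090, a catalase gene, had 0.63 ± 0.19 (adjusted p = 0.191) and was called higher by limma voom with group weights. CARD1 and 3 other leucine-rich repeat kinase genes (AT5G49770, AT5G49780 and AT1G79620) had 3 of 4 members above 0 and a median of 0.12, which was −0.10 without the 3 libraries above 55% not unique and −0.30 with that share as a covariate.

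**Figure D3:**
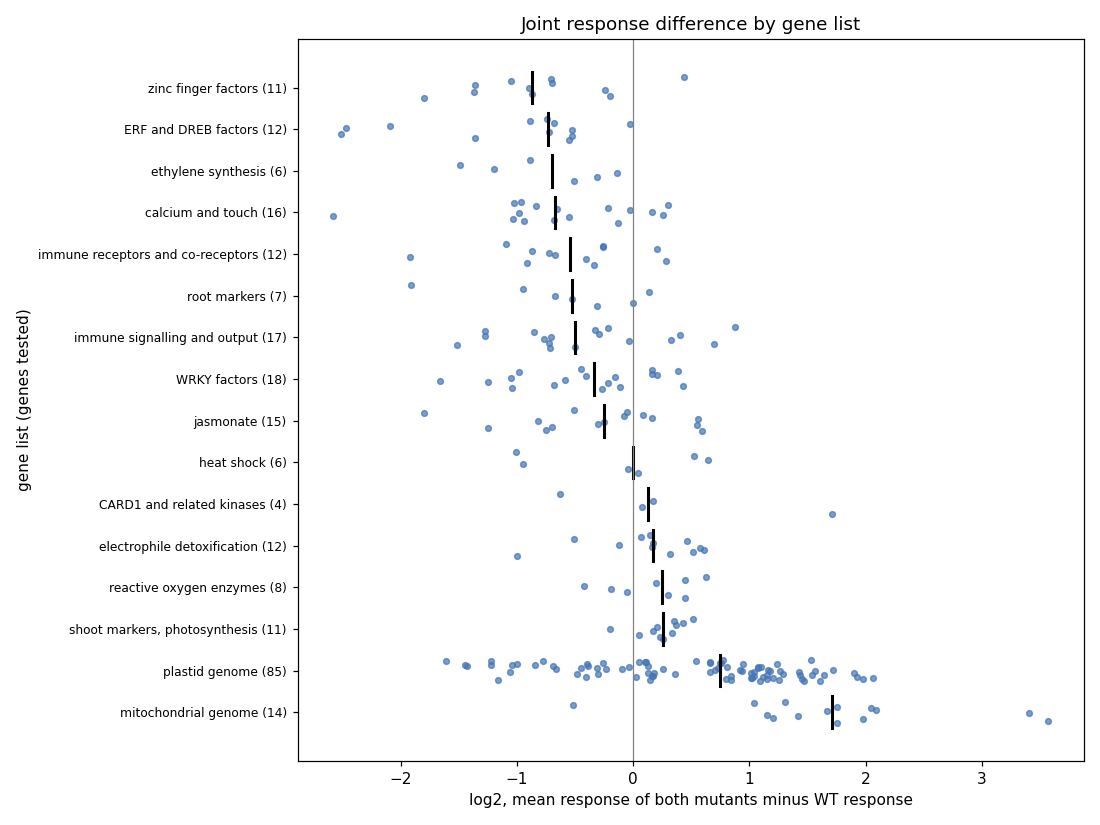
Joint difference (log2, horizontal axis) of the tested members of each gene list, 1 point per gene, with a black bar for the list median and the number tested in brackets. The 12 ERF and DREB factor genes all lie below 0, and the 85 plastid genome genes spread on both sides of it around a median of 0.75.

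Shoot and root markers were read in the same way. Photosynthesis genes, a shoot marker list, had 10 of 11 members above 0 (median 0.26), with summed levels of 25247 to 30782 CPM in card1-1 with DMBQ, 17176 to 25598 CPM in card1-1 with mock, 24249 to 27654 CPM in card1-2 with DMBQ, 21769 to 26800 CPM in card1-2 with mock, 21869 to 24238 CPM in WT with DMBQ and 19240 to 25515 CPM in WT with mock. Root marker genes had 6 of 7 tested members below 0 (median −0.53). Among the 6 was EXPA18 at −0.00078 ± 0.99, whose sign turned in 17 of 35 alternatives. The summed level of the root markers ran from 1349.6 to 1583 CPM in card1-1 with DMBQ and from 1268 to 1608 CPM with mock. In card1-2 it ran from 1031 to 1339.8 CPM with DMBQ and from 1580 to 1864 CPM with mock. In WT it ran from 1294 to 1862 CPM with DMBQ and from 1283 to 1367 CPM with mock. The 8 seed storage genes that mark embryos were too low to test, with sums of at most 0.801 CPM in every group but card1-1 with DMBQ. There the sums by library ran from 0 to 25.8 CPM with a mean of 6.44 CPM, so they were uneven within the group. None of these markers was called by edgeR or DESeq2, and limma voom with group weights called the root marker BGLU23 lower (joint difference −0.53 ± 0.16 by edgeR). Their part in the results was not tested.

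Organelle genes and library quality moved with the contrast. The share of alignment records that were not unique was 55.9 ± 8.06% in card1-1 with DMBQ and 25.05 ± 6.16% with mock, 47.8 ± 12.1% in card1-2 with DMBQ and 37.3 ± 3.18% with mock, and 33.4 ± 5.65% in WT with DMBQ and 24.7 ± 3.99% with mock (SD, n = 4 each). DMBQ minus mock was thus 30.9 percentage points in card1-1, 10.5 in card1-2 and 8.71 in WT. Plastid genome genes had 61 of 85 tested members above 0, a median joint difference of 0.75 and 1 called, and mitochondrial genome genes had 13 of 14 above 0, a median of 1.71 and none called. The plastid median was −0.01 without the 3 libraries above 55% not unique (card1-1 DMBQ 1 and 4 and card1-2 DMBQ 3) and −0.13 with that share as a covariate, and the mitochondrial median was 0.99 over the 11 members tested without the 3 libraries and 0.47 over all 14 with the covariate.

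Under the same pair of fits, the nuclear signalling lists had medians below 0. The WT response still enters them with a minus sign, so these medians are not a test of library quality. Without the 3 libraries, card1-1 with DMBQ kept only its libraries 2 and 3. The median of ERF and DREB genes was −0.93 without the 3 libraries and −1.01 with the covariate. That of calcium and touch genes was −0.76 and −0.92, that of zinc finger genes −0.94 and −1.17, and that of receptors −0.65 and −0.58. Without the 3 libraries 15 genes were called lower and 2 higher, and with the covariate 3 were called lower and 3 higher, SOBIR1 among the lower in both. Of the 11 genes, 7 were called without the 3 libraries and 2 with the covariate (SOBIR1 and MRL1). The other 9 had joint differences with the covariate of −2.19 for CYP707A3, −1.11 for SCA3, −1.09 for ACA10, −0.98 for WRKY22, −0.86 for ZAR1, 0.75 for TUB2, 0.81 for TUB3, 1.01 for AT5G60990 and 1.56 for ATCG00150 (adjusted p = 0.0665 to 0.139). Gene counts per library ran from 2048246 to 9000207. The deepest library was card1-2 DMBQ 2, which had 31.9% not unique, below the 47.4 to 61.1% of the other 3 libraries of its group.

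Transcript length also moved with the joint difference. Across 17624 genes with an annotated exonic length, Spearman's rho between length and joint difference was −0.26, as a description over genes that share libraries. The median joint difference was 0.22 in the 1763 genes of 77 to 977 bases, the first of 10 classes of equal size, and −0.23 in the 1763 genes of 3295 to 16614 bases, the last class. Exonic length was 3790 bases for MRL1, 3761 for SCA3, 4296 for ACA10 and 2904 for ZAR1, above the median of 1825 over all genes, and 2084 for SOBIR1, 2042 for CYP707A3 and 1326 for WRKY22. With offsets that remove the trends with length and GC content, rho was 0.00 and the first and last classes had medians of 0.01 and 0.00, and MRL1, SCA3, ACA10 and ZAR1 were no longer called (joint differences −0.89, −0.87, −0.80 and −0.79, adjusted p = 0.0745, 0.158, 0.220 and 0.170). SOBIR1, CYP707A3 and WRKY22 were called in that fit, at −1.88, −2.17 and −1.14.

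**Figure D4:**
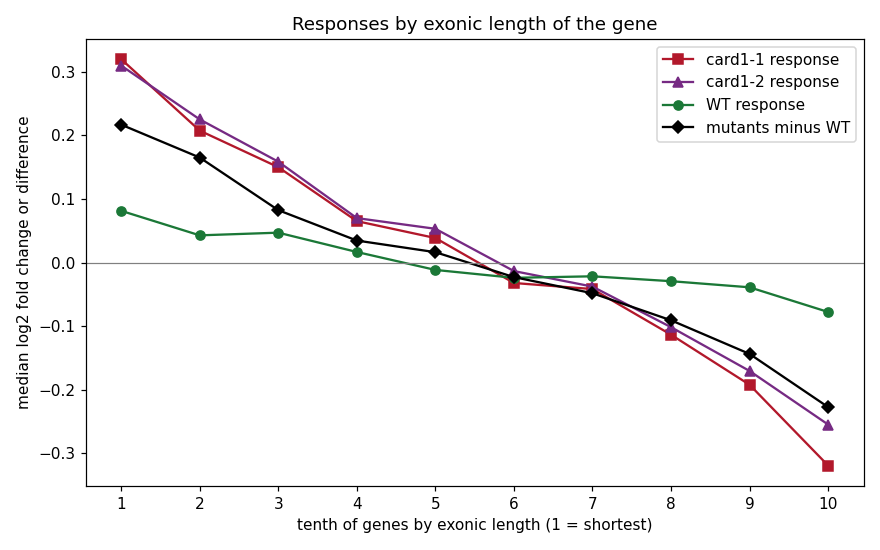
Median log2 response of card1-1, card1-2 and WT and median joint difference (mutants minus WT), on the vertical axis, of genes in 10 classes of exonic length from shortest to longest. The first and last classes lie at 0.32 and −0.32 in card1-1, at 0.31 and −0.25 in card1-2, at 0.08 and −0.08 in WT, and at 0.22 and −0.23 for the joint difference.

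**Figure D5:**
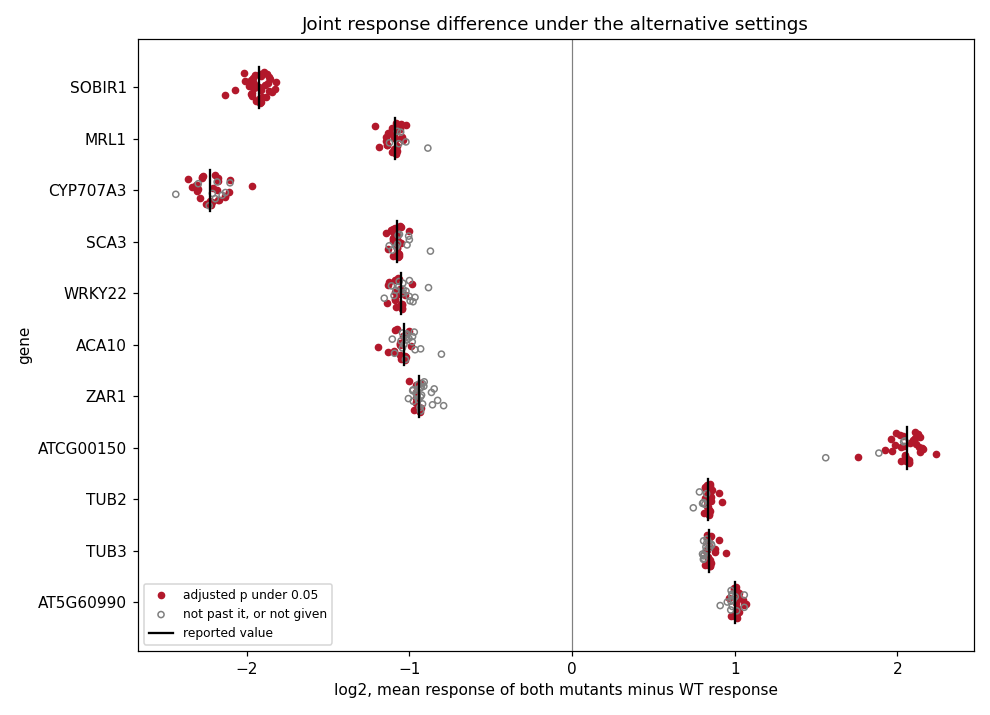
Joint difference (log2, horizontal axis) of the 11 called genes in each alternative fit, filled where the adjusted p was under 0.05 and open where it was not or was not given, with a black bar for the value reported. SOBIR1 is filled in all 36 fits, between −2.14 and −1.82, while ZAR1 is filled in 12 of 36.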

How the data were processed

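Whole-seedling RNA was sequenced in 24 libraries, 4 for each combination of genotype and treatment, grouped by the sample labels. Per the submitters' processing notes, TAIR10 was the build, and HTSeq 0.6.1, TopHat2 2.1.1 (TopHat is also named), bcl2fastq 2.17 and CASAVA were used, with no role or order. How reads were assigned to genes (annotation release, strand, overlaps) is not given in the sources used here, and so reads from antisense or overlapping partners could be shared. The authors deposited 1 table in the class of estimated counts, in which every gene value is a whole raw read count that was not normalized (0 of them not whole). Neither the library sizes nor the tests of the reported fit used its 9 lines without a gene, which include HTSeq tallies. The not unique share came from these tallies. It served as the covariate of an alternative fit and to choose the 3 libraries left out in another. In the tallies the alignments that were not unique made up 17.3% to 66.5% of a library's records, those without a feature 1.86% to 3.10% and those ambiguous 0.149% to 0.360%.

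Of 33602 gene codes, 32823 matched the RefSeq annotation of TAIR10.1, which gave names, coordinates and exonic length; the table itself has no coordinates. Low genes were removed by filterByExpr, with the groups given, at a minimum count of 10 and a minimum total of 15, and TMM scaling followed. edgeR 4.0.16 (R 4.3.3) fitted robust quasi-likelihood models to all 24 libraries with a term per group. SE is the log2 value divided by the square root of its F statistic, and CPM is TMM-scaled. Alternatives used DESeq2 1.42.0, limma 3.58.1 (voom), other scalings, filters and offsets, a replicate block, a covariate, and fits without libraries. The procedure was tested on simulated data, with equal changes added to the DMBQ libraries of both mutants. The simulation held no trend with transcript length or the not unique share, so it cannot show how these affect the calls. Intervals and errors cover the spread between libraries.

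The members and gene lists were chosen with earlier results of these data known. Genes were named by rule: CARD1; called genes with at least 5 CPM in a group and both alleles' differences in the direction of the call, up to 15 per direction; where a direction held fewer than 5, the 5 with the smallest p; the 5 smallest p for each allele and between alleles; and, from each list, called members and the 3 with the largest WT response. Windows upstream were shown for 3 genes called lower; another window is not reported here. Other genes named were picked after their values were seen. Over the 36 pairs of libraries within groups, chi-square per degree of freedom was 3.78 to 29.2 over genes with at least 10 counts, so no pair matched within sampling noise. Not every same-numbered pair of libraries correlated above 0.1, the criterion for pairing, so the reported fit had no block.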

Additional observations from a re-analysis of the deposited data

Results flagged for a closer look

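The joint difference of 11 genes passed the test of the difference itself, with log2 values of −1.92 for SOBIR1, 2.06 for ATCG00150, 0.84 for TUB2, −1.09 for MRL1, −2.23 for CYP707A3, −1.07 for SCA3, 0.84 for TUB3, 1.00 for AT5G60990, −1.05 for WRKY22, −1.03 for ACA10 and −0.94 for ZAR1.

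Of 90 groups of 4 libraries examined (the 11 genes and 4 library measures in 6 groups), 7 had 1 library far from the other 3 by Dixon's criterion, where chance alone marks about 1 in 20 groups. For TUB2 it was WT mock 4, at 387.9 CPM, and the same library stood apart for TUB3 at 252.0 CPM. For TUB3 it was also card1-1 mock 1, at 328.5 CPM, and for ZAR1 it was card1-2 mock 3, at 131.0 CPM. WT DMBQ 3 stood apart from its group by gene counts, at 2453832, and WT DMBQ 2 by the share not unique, 41.8%, and by the mitochondrial share of gene counts, 0.21%. Without WT mock 4 the joint differences of TUB2 and TUB3 were 0.92 and 0.95, both called; without card1-2 mock 3 that of ZAR1 was −0.86 (adjusted p = 0.104).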

How the results depend on the processing

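SOBIR1 was called in every one of its 36 alternatives, and no alternative turned the direction of any of the 11 called genes. The median SE of the joint difference was 0.41 over all genes tested, and how much of it comes from depth was not tested. Counts below are genes called, by edgeR unless named. For the joint difference the reported count of 7 lower and 4 higher became 84 lower and 39 higher with DESeq2, 90 and 30 with limma voom and group weights, 16 lower with limma voom and 13 lower with total counts scaling. It became 3 lower with offsets for GC content and length, 3 lower with the share not unique as a covariate, and 15 lower and 2 higher without the 3 libraries above 55% not unique. Leaving out 1 library at a time gave 1 to 12 lower and 0 to 7 higher; the count of 1 lower, SOBIR1, came without WT mock 1, 2 or 3 or WT DMBQ 2 or 3. The cause was not tested where an alternative does not itself remove samples or genes.

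The difference of card1-1 from WT, 10 genes as reported, became 99 with DESeq2, 16 with no low-count filter, 2 with the covariate, 31 without the 3 libraries and 7 to 39 with 1 library left out. That of card1-2, 5 genes, became 58 with DESeq2, 9 with a minimum count of 30, 3 with the offsets, 11 with the covariate, 9 without the 3 libraries, 12 with limma voom, 18 with group weights, 12 with card1-2 and WT only and 1 to 12 with 1 library left out. The comparison between alleles, 0 genes, became 23 with DESeq2, 4 with no filter, 2 without the 3 libraries and 0 to 12 with 1 library left out.

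Same-numbered libraries of different groups correlated at −0.06 to 0.23 over 60 pairs, 16 of them above 0.1, and 15 of 24 libraries were nearest to one of their own number, which is a hint from the data that the numbers carry something shared. The labels give no such link and not every pair was above 0.1, so the samples were not treated as paired. With the replicate number as a block the joint count was 23 lower and 9 higher, all 11 genes among them, that of card1-1 58, that of card1-2 12 and that between alleles 2.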
